A study of Mus musculus with 2 samples.

Results

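The genes described here encode the enzymes of glycolysis, the pentose phosphate pathway and the tricarboxylic acid (TCA) cycle, together with hypoxia-responsive genes that are often read alongside glycolysis. They were taken from a list of 47 gene symbols, and a gene was kept when at least 1 probe carried that symbol alone in the platform's annotation and had a value on both arrays. This left 43 of the 47 genes, out of 14150 genes measured in the same way: 18 of glycolysis and hypoxia, 6 of the pentose phosphate pathway and 19 of pyruvate dehydrogenase and the TCA cycle. The other 4, Gpi1, Eno1, Pdk1 and G6pdx, had no such probe in the data used here. The 43 genes were read by 201 probes, of which 153 were repeats of Gapdh and 48 covered the other 42 genes.

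Both arrays compared CD8+ T cells of a pmel transgenic mouse, whose T cell receptor recognises the melanocyte protein gp100, at 2 stages of culture. The RNA in channel 1 came from cells after 1 stimulation, and the RNA in channel 2 came from cells after 2 stimulations. There were 2 arrays, the second labelled as a repeat of the first, and the labels do not say whether it used a new culture. The errors therefore measure only the spread between these arrays, which may be technical, and no stage without stimulation was used here. A probe's value on an array is the log ratio between its channels, taken as log2. Neither the log base nor the numerator is given in the sources used here. The ratio may follow the order of the titles and channels or the opposite order, which is not settled here. In the first case cells after 1 stimulation are the numerator, and a negative value would be RNA more abundant after 2 stimulations. On that reading a negative value can come from more RNA per cell or from more cells that hold the RNA, which cannot be told apart in bulk RNA. For this reason genes are described as lying on the positive or on the negative side, with no direction of change.

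Glycolysis converts glucose to pyruvate in the cytosol, and lactate dehydrogenase turns pyruvate into lactate. The pentose phosphate pathway branches off glycolysis, yields NADPH in its oxidative steps and interconverts sugar phosphates in its non-oxidative steps, which supply ribose for nucleotides. The pyruvate dehydrogenase complex feeds acetyl-CoA into the TCA cycle in mitochondria. T cells that are activated and divide are known for taking up more glucose and releasing lactate, and the transcription factor HIF-1 can switch on many glycolytic genes.

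The arrays carried 21919 probes, and 21427 had a value on both. The medians were 0.01 on array 1 and 0.02 on array 2, so a shift shared by all genes would not be seen. Across probes, which are not independent replicates, the arrays correlated with Pearson's r = 0.494, and 248 probes had equal values on both. Spot intensities were not used here, so signal over background is unknown and levels cannot be compared between genes. The cell type label was set against its markers only as ratios. Both arrays were positive for 5 of 7 T cell genes (29.6% of all genes) and negative for 0 (33.6% of all genes). Cd8a read 0.37 and 0.90 and Cd8b1 0.21 and 0.16 on arrays 1 and 2. Of 9 B cell markers, both arrays were positive for 6 and negative for 1, beside the same shares of all genes. Their median log2 ratio was 0.165, with means from -0.045 (Blk) to 1.15 (Cd79b). The 9 myeloid markers had a median of -0.100 and the 5 erythroid markers one of 0.005. The part of these other cells in the values below was not tested.

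By the mean of both arrays most of the metabolic genes were negative, by small amounts. Idh3a, Rpia and Rpe stood out by size on both arrays. By the mean alone Hk2 (1.68-fold, negative) and Idh2 (1.57-fold, positive) also passed 1.5-fold. Of the 43 genes, 20 were negative on both arrays (33.6% of all genes) and 6 were positive on both (29.6% of all genes). A further 9 were negative on array 1 and positive on array 2 (17.3% of all genes), and 7 showed the opposite (16.8% of all genes). The median over the 43 genes was -0.165, against -0.020 over all 14150 genes. At least 1.5-fold from a ratio of 1 on both arrays, on the same side, were 3 of the 43 genes, all negative, where 3.0% of all genes met that rule on the negative side. On the positive side 0 of the 43 met it, against 1.24% of all genes. Counted by probes, 4 of 201 met it on the negative side (2.37% of all probes), one each of Idh3a, Rpia, Rpe and Hk2. On the positive side 1 probe of Idh2 met it (1.74% of all probes). As 153 of the 201 are repeats of Gapdh, all of these were among the other 48 probes. These counts depend on how the arrays are scaled: with each array centred on its Gapdh probes, both arrays were negative for 13 genes (15.6% of all genes) and positive for 8 (28.0% of all genes). Rpia was then the gene that met the 1.5-fold rule on the negative side (1.47% of all genes), and Idh2 met it on the positive side (2.14% of all genes).

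limma's moderated test against a ratio of 1, adjusted over all 14150 genes by Benjamini-Hochberg, called 0 of the 43 genes at 0.05, and 0.00% of all genes. The lowest adjusted p among the 43 was 0.138, for Idh3a, and the lowest over all genes was 0.122. With a robust spread model, limma's calls were 0 of the 43 and 0 of all genes. A test on each gene's own spread called 0 of the 43 and 146 of all genes (1.03%), and limma with Gapdh centring, in a fit that took the spread as equal for all genes, called 0 of the 43 and 266 of all genes (1.88%). In limma's test 11 of the 43 genes had an unadjusted p under 0.05, of which 9 were negative (10.3% of all genes) and 2 were positive (5.86% of all genes). At the level of probes limma called 0 of 201 probes, 0.00% of all probes. Its unadjusted p was under 0.05 for 13 of the 201, against 14.9% of all probes. All 13 were among the 48 probes of genes other than Gapdh, whose 153 probes are repeats of 1 target. Single genes are therefore described by their size and by how well the arrays agree. By the labels both arrays held the stages in the same channels, so an effect of stage and one of channel cannot be told apart.

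**Figure D1:**
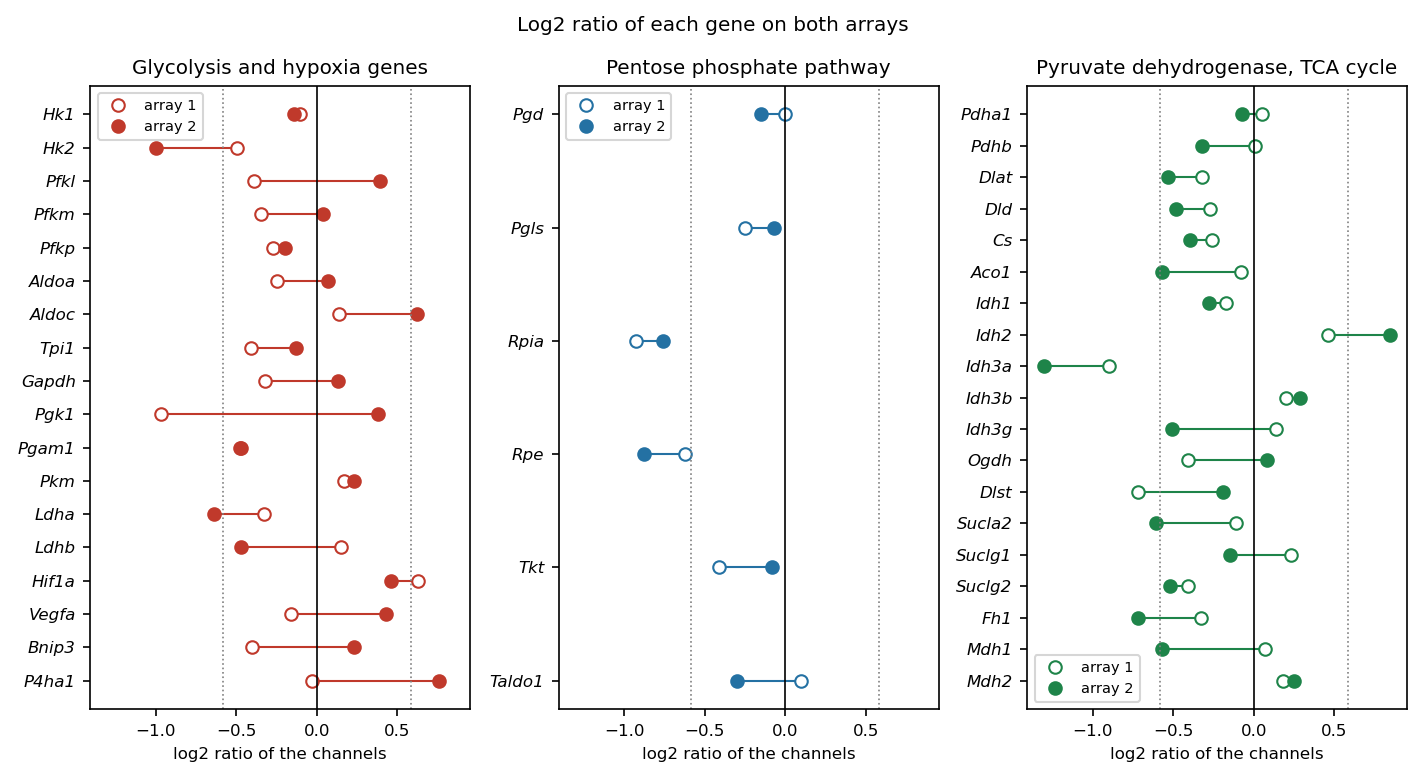
Log2 ratio of the channels (horizontal axis) for each of the 43 genes, open circles for array 1 and filled circles for array 2, joined by a line; dotted lines mark 1.5-fold. Idh3a, Rpia and Rpe lie beyond the dotted line on both arrays, and Pgk1 spans the widest range, from -0.97 to 0.38.

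The hexokinases, which trap glucose in the cell as glucose phosphate, opened the glycolytic series on the negative side. Hk2, the inducible isozyme, read -0.495 on array 1 and -1.0 on array 2, a mean of -0.75 ± 0.36 (SD, n = 2) or 1.68-fold. Its 2 probes disagreed: one read -0.74 and -2.03, the other -0.25 and 0.03. The Hk2 value thus rests on the first probe, whose mean was -1.39, or 2.61-fold. Hk1, the widely expressed isozyme, read -0.105 and -0.140 as the mean of 4 probes, whose own means ran from -0.43 to 0.11. Hk2 minus Hk1 was -0.39 on array 1 and -0.86 on array 2, a mean difference of -0.625 ± 0.332 (SD, n = 2).

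The phosphofructokinases, which commit sugar to glycolysis, stayed near a ratio of 1 or changed side between arrays. Pfkp, the platelet-type subunit, read -0.27 and -0.20. Pfkm, the muscle-type subunit, read -0.35 and 0.04, and Pfkl, the liver-type subunit, read -0.39 and 0.39. Only Pfkp of these 3 subunits had the same sign on both arrays. The differences between subunits were no larger than their spread between arrays, for instance -0.235 ± 0.502 (SD, n = 2) for Pfkp minus Pfkl.

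Aldolase splits fructose bisphosphate, and its isozymes Aldoa and Aldoc differed by the same sign on both arrays. Aldoa read -0.25 and 0.07, while Aldoc read 0.14 and 0.62 and was among the 3 genes of this arm positive on both arrays. Aldoa minus Aldoc was -0.39 and -0.55, a mean difference of -0.47 ± 0.11 (SD, n = 2). Tpi1, the triose phosphate isomerase, read -0.41 and -0.13.

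Gapdh, which oxidises glyceraldehyde phosphate and yields NADH, was spotted many times, and its 153 probes show how closely repeats of one target agreed within an array. On array 1 the Gapdh probes had a lowest value of -0.60, a median of -0.32 and a highest of 0.01, with a mean of -0.324 ± 0.112 (SD over probes). On array 2 they had a lowest value of -0.04, a median of 0.14 and a highest of 0.26, with a mean of 0.134 ± 0.053 (SD over probes). The groups of probes hardly met: 152 of the 153 were negative on array 1, and 151 were positive on array 2. Every one of the 153 probes was higher on array 2 than on array 1, by 0.15 to 0.81 with a median of 0.46. These probes share 1 target accession and are repeats of a measurement, not of the experiment. The gap between arrays for Gapdh was thus larger than the spread between its spots, and its mean over both arrays, -0.095 ± 0.324 (SD, n = 2), did not differ from 0 beyond its error.

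**Figure D2:**
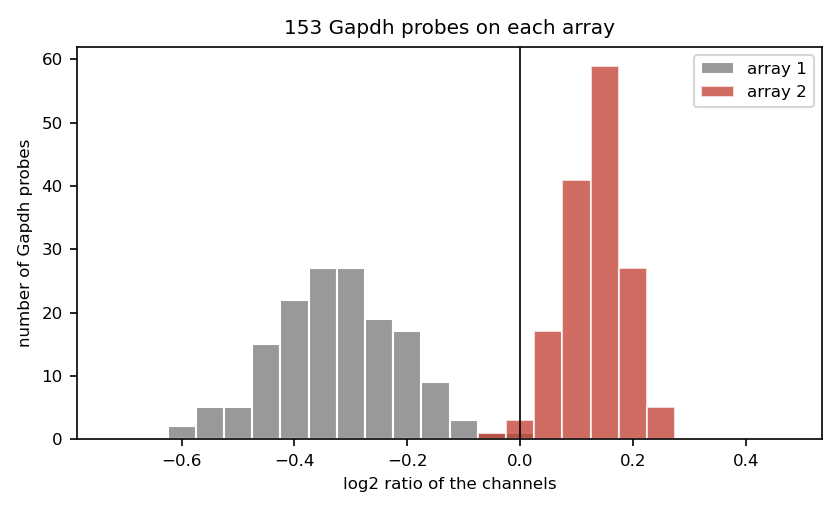
Number of Gapdh probes (vertical axis) by log2 ratio of the channels (horizontal axis, bins of 0.05), grey for array 1 and red for array 2, 153 probes on each. The array 1 probes centre on -0.32 and the array 2 probes on 0.14, on opposite sides of 0.

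Pgk1, phosphoglycerate kinase and the first step of glycolysis to make ATP, gave the widest gap of all 43 genes, with -0.97 on array 1 and 0.38 on array 2. Its array difference of 1.35 exceeded that of 99.5% of all genes, so no side can be given for it. Pgam1, phosphoglycerate mutase, gave the closest agreement at -0.47 and -0.48, a mean of -0.475 ± 0.007 (SD, n = 2) or 1.39-fold. Pkm, the pyruvate kinase of proliferating and muscle cells, lay on the other side at 0.17 and 0.23.

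Ldha, the lactate dehydrogenase subunit that favours lactate formation, was negative on both arrays at -0.33 and -0.64, a mean of -0.485 ± 0.219 (SD, n = 2) or 1.40-fold. Ldhb, the subunit that favours the reverse reaction, read 0.15 and -0.47. Ldha minus Ldhb was -0.48 and -0.17, a mean difference of -0.325 ± 0.219 (SD, n = 2).

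Of the 4 measured hypoxia genes, 1 was positive on both arrays (29.6% of all genes). The other 3 were negative on array 1 and positive on array 2 (17.3% of all genes). Hif1a, the oxygen-regulated subunit of HIF-1, was positive on both arrays at 0.63 and 0.46, a mean of 0.545 ± 0.120 (SD, n = 2) or 1.46-fold, short of the 1.5-fold rule on array 2. Its mean was higher than that of 96.3% of all genes, and limma's unadjusted p was 0.0145 with an adjusted p of 0.212. The other 3 are known targets of HIF-1. Vegfa, a blood vessel growth factor, read -0.16 and 0.43. Bnip3, a mitochondrial protein of mitophagy, read -0.40 and 0.23. P4ha1, a collagen prolyl hydroxylase subunit, read -0.03 and 0.76. All 3 were thus higher on array 2, by 0.59, 0.63 and 0.79.

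The difference between arrays was the main feature of the arm of glycolysis and hypoxia genes. Its median was -0.297 on array 1 and 0.102 on array 2, against -0.109 for the mean of both. Of its 18 genes, 8 were negative on array 1 and positive on array 2 (17.3% of all genes), and 1 showed the opposite (16.8% of all genes). The 8 were Pfkl, Pfkm, Aldoa, Gapdh, Pgk1, Vegfa, Bnip3 and P4ha1. Array 2 was higher by at least 0.5 for 5 of the 18, namely Pgk1, P4ha1, Pfkl, Bnip3 and Vegfa, against 9.09% of all genes. Of these 5, 2 were among the 14 glycolytic enzymes and 3 among the 4 hypoxia genes. The median of array 2 minus array 1 was 0.175 over the enzymes and 0.61 over the hypoxia genes. The median of array 2 minus array 1 was 0.300 in this arm, against -0.210 in the TCA arm, 0.010 in the pentose phosphate arm and -0.010 over all genes. Marker lists of other cells were also higher on array 2, with medians of the same difference of 0.310 for B cell, 0.35 for myeloid and 0.270 for erythroid markers, and the T cell genes gave 0.290. Their part in the difference was not tested.

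**Figure D3:**
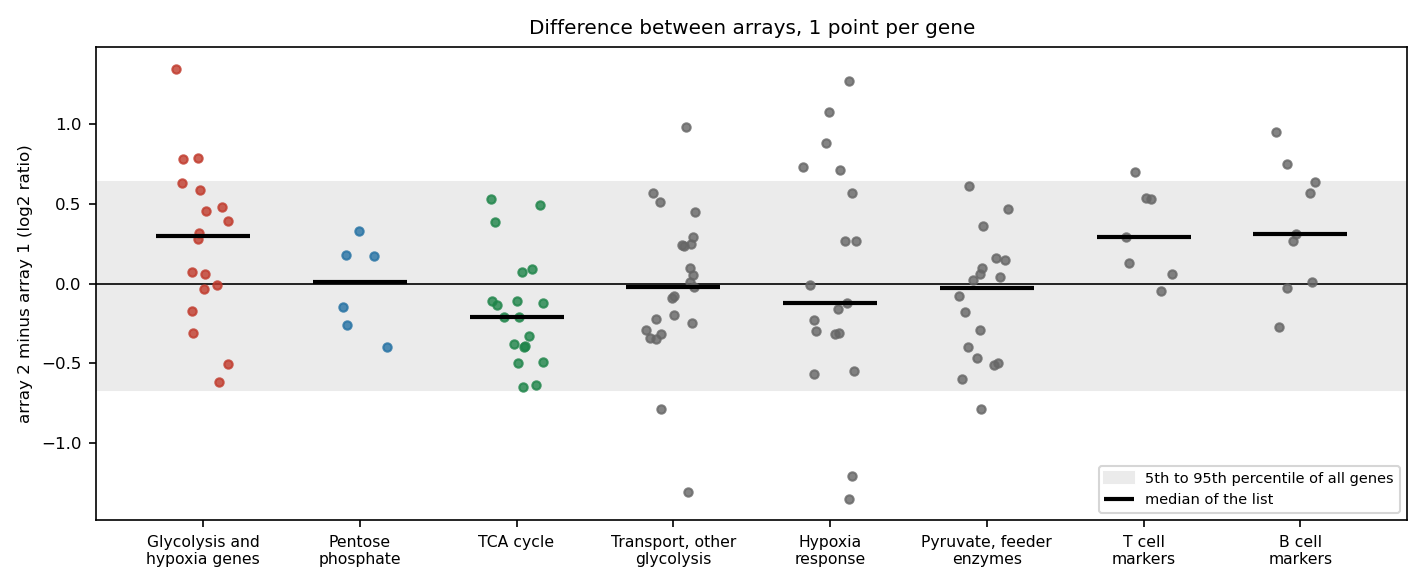
Array 2 minus array 1 in log2 ratio (vertical axis) for each gene of the 3 metabolic arms, 3 lists of related genes and the T and B cell markers; thick bars are list medians and the grey band spans the 5th to the 95th percentile of all genes, -0.67 to 0.64. The glycolysis and hypoxia arm has a median of 0.300 and the TCA arm one of -0.210, and Pgk1 at 1.35 is the highest point of the first column.

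Upstream sequences are shown for the 4 genes with the largest gap in favour of array 2, Pgk1, P4ha1, Pfkl and Bnip3, since HIF-1 binds the core ACGTG or GCGTG in its target genes, and for Rpia and Rpe, which met the 1.5-fold rule. Each is the 250 bases before the gene's start from RefSeq on GRCm38.p6, 5′ to 3′ on the gene's strand. Pgk1 is chrX:106186850-106187099 (plus strand), P4ha1 chr10:59323046-59323295 (plus), Pfkl chr10:78009808-78010057 (minus), Bnip3 chr7:138909507-138909756 (minus), Rpia chr6:70792176-70792425 (minus) and Rpe chr1:66700581-66700830 (plus). Capitals mark ACGTG or GCGTG on either strand, so that a motif on the opposite strand appears as CACGT or CACGC.
Pgk1: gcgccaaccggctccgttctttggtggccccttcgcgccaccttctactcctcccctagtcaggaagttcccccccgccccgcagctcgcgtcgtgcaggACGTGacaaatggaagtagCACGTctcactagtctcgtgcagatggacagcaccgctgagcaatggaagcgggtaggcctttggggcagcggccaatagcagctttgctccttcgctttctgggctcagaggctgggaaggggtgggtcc
P4ha1: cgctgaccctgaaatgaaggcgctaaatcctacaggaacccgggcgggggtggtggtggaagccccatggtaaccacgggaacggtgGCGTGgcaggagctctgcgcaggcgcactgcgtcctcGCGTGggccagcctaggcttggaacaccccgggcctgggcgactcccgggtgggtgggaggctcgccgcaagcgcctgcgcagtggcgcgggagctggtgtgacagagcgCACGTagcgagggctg
Pfkl: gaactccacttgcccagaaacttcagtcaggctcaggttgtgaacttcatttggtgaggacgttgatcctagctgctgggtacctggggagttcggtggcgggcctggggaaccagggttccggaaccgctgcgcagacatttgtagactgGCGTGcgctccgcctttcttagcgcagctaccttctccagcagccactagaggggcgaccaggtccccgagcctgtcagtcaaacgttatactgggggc
Bnip3: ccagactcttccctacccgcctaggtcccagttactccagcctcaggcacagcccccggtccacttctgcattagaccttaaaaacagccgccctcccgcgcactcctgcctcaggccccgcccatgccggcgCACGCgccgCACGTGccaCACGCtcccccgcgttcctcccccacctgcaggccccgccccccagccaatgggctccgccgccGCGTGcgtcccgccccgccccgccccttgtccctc
Rpia: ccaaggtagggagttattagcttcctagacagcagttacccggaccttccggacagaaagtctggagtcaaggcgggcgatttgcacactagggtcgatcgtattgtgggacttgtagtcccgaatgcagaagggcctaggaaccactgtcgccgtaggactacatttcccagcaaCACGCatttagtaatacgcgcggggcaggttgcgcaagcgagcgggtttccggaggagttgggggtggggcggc
Rpe: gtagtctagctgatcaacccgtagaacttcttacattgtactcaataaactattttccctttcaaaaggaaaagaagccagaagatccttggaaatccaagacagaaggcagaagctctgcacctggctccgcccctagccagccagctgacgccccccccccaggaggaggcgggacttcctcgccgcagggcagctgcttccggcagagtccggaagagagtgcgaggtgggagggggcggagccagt
Pgk1 held 2 such cores, which begin 150 and 131 bases before the start, P4ha1 held 3, Pfkl 1, Bnip3 5, Rpia 1 and Rpe 0. The pair in the middle of Bnip3 overlaps as CACGTG, which reads ACGTG on both strands and is also the E-box bound by MYC. A sequence was found for 46 of the 47 listed genes, all but Idh3a. A gene was counted when any of its windows held the core. Some members had several windows, for instance 4 for Pfkm and 3 for Aldoa, which can raise their count. At least 1 ACGTG lay in a window of 11 of 21 glycolysis and hypoxia genes (52.4%), 0 of 7 pentose phosphate genes and 4 of 18 TCA genes (22.2%). The shares were 20.0% of 17491 protein-coding genes and 18.5% of all 27025 genes (by window, 16.6% of 32851). For either core the shares were 19 of 21, 6 of 7 and 10 of 18, against 47.1% of protein-coding genes and 41.5% of all genes (by window, 38.6%). In the lists of related genes ACGTG lay in a window of 9 of 25 transport and other glycolytic genes and 10 of 17 hypoxia genes. The same held for 0 of 8 pentose phosphate genes and 8 of 21 pyruvate, TCA and feeder genes. Either core was held by 14 of 25, 14 of 17, 5 of 8 and 18 of 21 of them. The windows of the members were also richer in G and C, with a median of 61.0% against 55.6% over protein-coding genes. Cores also lay upstream of members lower on array 2: Ldha (array 2 minus array 1 of -0.31) held 5 and Hk2 (-0.505) held 2. Aco1 (-0.49) and Sucla2 (-0.5), also lower on array 2, held 0. A link between the cores and the difference between arrays was not tested.

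The pentose phosphate genes lay on the negative side, led by 2 enzymes of the non-oxidative branch. Rpia, the isomerase that makes ribose phosphate, read -0.93 and -0.76, a mean of -0.845 ± 0.120 (SD, n = 2) or 1.80-fold, and 2.64% of all genes had a lower mean. Rpe, the epimerase acting on the same substrate, read -0.62 and -0.88, a mean of -0.75 ± 0.18 (SD, n = 2) or 1.68-fold. Both passed the 1.5-fold line on both arrays, and limma's unadjusted p was 0.0026 for Rpia and 0.0052 for Rpe, with adjusted p of 0.148 and 0.168.

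The transferases that return sugars to glycolysis were nearer 0. Tkt, transketolase, read -0.41 and -0.08, and Taldo1, transaldolase, read 0.10 and -0.30. Rpia minus Tkt was -0.52 and -0.68, a mean of -0.60 ± 0.11 (SD, n = 2), and Rpe minus Taldo1 was -0.72 and -0.58, a mean of -0.65 ± 0.10 (SD, n = 2). Both gaps exceeded their spread between arrays, which adds nothing to the values above. Rpia and Rpe had the lowest means of this arm, so a gap to its other members was built into these pairs. In the oxidative branch, Pgls, the lactonase, read -0.25 and -0.07 and Pgd, which makes NADPH, read 0.00 and -0.15. The arm's median was -0.203, with -0.330 on array 1 and -0.225 on array 2. Both arrays were negative for 4 of its 6 genes (33.6% of all genes) and positive for 0 (29.6% of all genes).

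**Figure D4:**
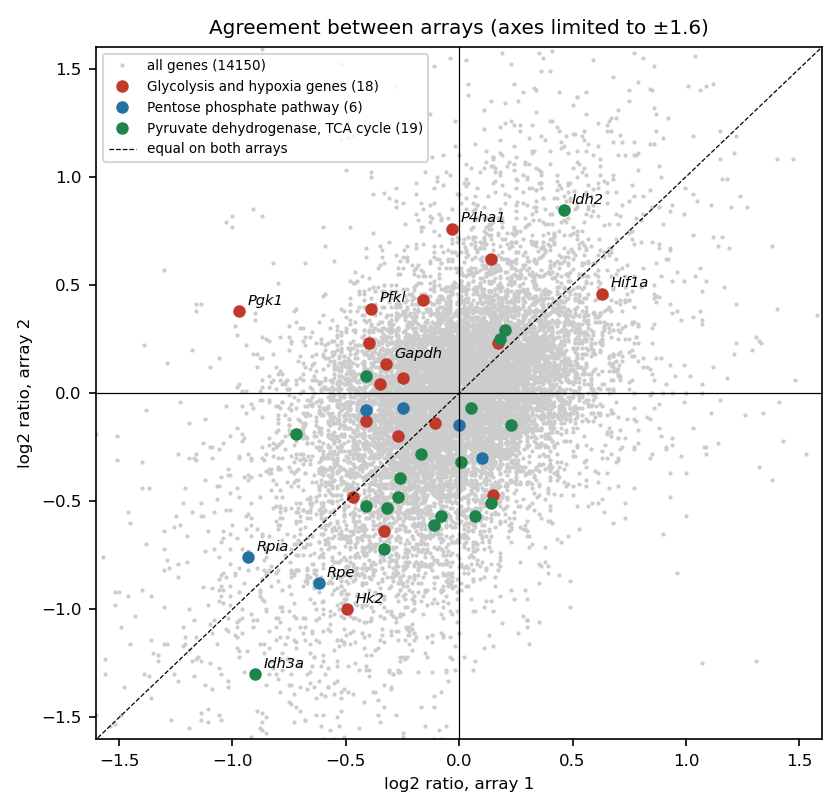
Log2 ratio on array 1 (horizontal axis) against array 2 (vertical axis) for all 14150 genes (grey) and the 43 metabolic genes, coloured by arm; the dashed line marks equal values and the axes end at 1.6. Idh3a, Rpia and Rpe lie in the lower left along the dashed line, while Pgk1 lies far above it in the upper left.

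The median of the TCA arm was -0.250 for the mean of both arrays. Array 1 gave -0.110, the highest of the 3 arms, and array 2 gave -0.395, the lowest. Both arrays were negative for 10 of the 19 genes (33.6% of all genes) and positive for 3 (29.6% of all genes). With the arrays centred on Gapdh the median was -0.155 and 5 of the 19 were negative on both (15.6% of all genes). In the pyruvate dehydrogenase complex, the E1 subunits stood near 0: Pdha1 read 0.05 and -0.07, and Pdhb read 0.01 and -0.32. The other components were negative on both arrays, with Dlat, the E2 acetyltransferase, at -0.32 and -0.53 and Dld, the E3 dehydrogenase shared with the oxoglutarate complex, at -0.27 and -0.48.

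Citrate synthase, Cs, which condenses acetyl-CoA with oxaloacetate, read -0.26 and -0.395 as the mean of 2 probes that differed in size, -0.46 and -0.69 for one and -0.06 and -0.10 for the other. Aco1, the cytosolic aconitase that also acts as the iron regulatory protein, read -0.08 and -0.57. Both were negative on both arrays.

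The isocitrate dehydrogenases were spread over both sides, and they held the lowest and the highest mean of the 43 genes. Idh3a, the catalytic subunit of the NAD-dependent TCA enzyme, read -0.90 and -1.30, a mean of -1.10 ± 0.28 (SD, n = 2) or 2.14-fold, with a 95% interval of limma reaching 0.438 to either side. A lower mean was found for 1.05% of all genes. The regulatory subunits of the same enzyme lay elsewhere: Idh3b read 0.20 and 0.29, and Idh3g 0.14 and -0.51. Idh3a minus Idh3b was -1.10 and -1.59, a mean difference of -1.35 ± 0.35 (SD, n = 2), and Idh3a minus Idh3g was -1.04 and -0.79, both gaps being larger than their spread between arrays. As Idh3a had the lowest mean of the 43 genes, a gap to its partners was built into these pairs. Idh3b minus Idh3g, 0.43 ± 0.52 (SD, n = 2), was within its spread. Each of these subunits rests on 1 probe.

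Idh2, the NADP-dependent mitochondrial enzyme, was the highest at 0.46 and 0.845, a mean of 0.65 ± 0.27 (SD, n = 2) or 1.57-fold, and 97.6% of all genes had a lower mean. Its 2 probes differed: one read 0.93 and 1.21, or 2.10-fold on average, and the other -0.01 and 0.48. Idh1, the cytosolic NADP-dependent enzyme, lay on the other side at -0.17 and -0.28. Idh2 exceeded Idh1 by 0.63 and 1.13, a mean difference of 0.88 ± 0.35 (SD, n = 2). As Idh2 had the highest mean of all members, a gap was built into this pair too.

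In the second part of the cycle, Ogdh, the E1 of the oxoglutarate dehydrogenase complex, read -0.41 and 0.08, and Dlst, its E2, read -0.72 and -0.19. Of the succinyl-CoA ligase subunits, Suclg2 (GTP-specific) read -0.41 and -0.52 and Sucla2 (ATP-specific) -0.11 and -0.61, while Suclg1, the subunit common to both forms, read 0.23 and -0.15. Suclg2 minus Suclg1 was -0.64 and -0.37, a mean difference of -0.505 ± 0.191 (SD, n = 2). Fumarase, Fh1, was negative on both arrays at -0.33 and -0.72, a mean of -0.525 ± 0.276 (SD, n = 2) or 1.44-fold. The malate dehydrogenases parted by compartment on array 2, with the mitochondrial Mdh2 at 0.18 and 0.25 and the cytosolic Mdh1 at 0.07 and -0.57. The difference Mdh2 minus Mdh1, 0.465 ± 0.502 (SD, n = 2), was within its spread.

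Genes next to these pathways were set beside them. Both arrays were negative for 11 of 18 measured genes of pyruvate handling, TCA and feeder enzymes (33.6% of all genes) and positive for 2 (29.6%). Their median was -0.165. limma called 0 of them, with 5 at an unadjusted p under 0.05, against 2291 of all 14150 genes. Nnt, the mitochondrial transhydrogenase that makes NADPH, met the 1.5-fold rule at -0.64 and -0.82. Among the kinases that switch off pyruvate dehydrogenase, Pdk2 read 0.62 and 0.02 and Pdk3 -0.26 and -0.11. Pdk4, another of these kinases, named after its values were seen, read -0.41 and -0.81. Pcx, which makes oxaloacetate from pyruvate, read 0.15 and -0.32, and Mpc1, a subunit of the mitochondrial pyruvate carrier, -0.01 and -0.51.

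Both arrays were negative for 7 of 23 further glycolytic and transport genes (33.6% of all genes) and positive for 5 (29.6%). Their median was -0.050. limma called 0 of them, with 1 at an unadjusted p under 0.05, against 2291 of all 14150 genes. Array 2 was higher than array 1 for 11 of these 23 genes (47.9% of all genes) and lower for 12, with a median difference of -0.02. The glucose transporter Slc2a1 read -0.48 and 0.03, the same order of arrays as Pgk1 and Gapdh, and Slc2a3 read 0.17 and 0.09. The lactate transporters opposed each other: Slc16a3 read -0.38 and 0.19, and Slc16a1 read 0.28 and -1.03. Pfkfb3, which makes the activator of phosphofructokinase, gave -0.36 and -0.35. Of 6 further pentose phosphate genes, both arrays were negative for 2 and positive for 1, beside the same shares of all genes. Their median was -0.108, and limma called 0, with 0 at an unadjusted p under 0.05.

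Both arrays were negative for 6 of 19 further genes of the hypoxia response (33.6% of all genes) and positive for 3 (29.6%). Their median was 0.025. limma called 0 of them, with 4 at an unadjusted p under 0.05, against 2291 of all 14150 genes. Array 2 was higher by at least 0.5 for 6 of these 19, against 9.09% of all genes, yet the median of array 2 minus array 1 was -0.120. The oxygen sensor genes Egln1 (-0.10 and 0.98) and Egln3 (-0.40 and 0.48) and the prolyl hydroxylase gene P4ha2 (-0.59 and 0.68) showed the order of arrays seen in P4ha1. Egln2, another sensor gene, ran the other way at 0.77 and -0.44. These genes were chosen after their values were seen. Myc, which encodes a driver of glycolytic genes, also ran the other way at 0.30 and -1.05.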

How the data were processed

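The deposited table gives each probe a signed value per array, taken here as a log2 ratio between channels, with base 2 assumed. The scanner, background correction, normalization and filters behind the deposited values are not given in the sources used. The platform's annotation gave 15998 probes a single symbol, and probes of a gene were averaged on each array. The ratio was tested against 0 in limma 3.58.1 (R 4.3.3), with an intercept over 2 arrays, moderated variances (1 residual and 3.55 prior degrees of freedom) and Benjamini-Hochberg adjustment over 14150 genes or 21427 probes. A size rule of 1.5-fold on both arrays was used beside it. The members and lists were chosen with earlier results of these data known. Every member is named, and related genes by the size rule, from a fixed set or, where said, after their values were seen. Alternatives were median centring, quantile normalization, other probe summaries and folds, natural logs, other spread models, each array alone and, added after the data were seen, Gapdh centring. A planned comparison of isozyme protein sequences was not made here. Promoter windows come from RefSeq (GRCm38.p6). The array number limits the precision.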

Additional observations from a re-analysis of the deposited data

How the results depend on the processing

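Median centring, quantile normalization, the median of probes and keeping probes with a single value left every count of genes within 1.5 times its main value. The 1.5-fold count on the negative side, 3 genes, was 0 at a 2-fold limit, 8 at the lower fold limit tried, 6 if the values are natural logs and 1 with Gapdh centring. The count on the positive side, 0 genes, was 2 at the lower fold limit, 2 with natural logs, 1 for probes in place of genes and 1 with Gapdh centring. On single arrays these counts were 5 to 7 (negative) and 1 to 3 (positive). Genes negative on both arrays were 13 with Gapdh centring, 5 of them in the TCA arm, and the pentose phosphate median was then -0.107. On single arrays 28 to 29 genes were negative and 13 to 15 positive, with 7 to 14 negative in the glycolytic arm, 4 to 6 in the pentose phosphate arm and 11 to 15 in the TCA arm. The medians on single arrays ran from -0.297 to 0.102 (glycolysis and hypoxia), -0.330 to -0.225 (pentose phosphate) and -0.395 to -0.110 (TCA). The sign of the glycolysis and hypoxia median thus depends on the array. For the 14 glycolytic enzymes alone the median was negative on both arrays, -0.327 and -0.045. The 4 hypoxia genes gave -0.095 and 0.445. limma called 0 of the 43 genes under each alternative that gives a test, while of all genes it called 266 with Gapdh centring, 146 with each gene's own spread and 0 under the others. At the level of probes it called 2 of 201 with Gapdh centring, one of Hk2 and one of Idh2, among 441 of all probes, and both Gapdh-centred fits took the spread as equal for all features. Of the 43 means, 9 moved by more than their SD between arrays with Gapdh centring, 1 with median centring, 1 with the median of probes and 0 with quantile normalization or with single-value probes kept. With 2 arrays, leaving one out cannot move a mean by more than its SD, so single arrays say nothing here. Each ratio already compares the stages within an array, and no further pairing was possible because the series has 1 group. Without intensities, signal over background is unknown.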
